A study of Mus musculus with 12 samples.

Results

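Transcript levels of 10 genes that p53 is known to activate when cells are driven to apoptosis were followed through iron chelation and NCOA4 depletion in a mouse neuronal cell line. The genes were 3 cell surface receptors (Fas, Tnfrsf10b and Eda2r), 4 genes of the mitochondrial route to cell death (Bbc3, Pmaip1, Bax and Apaf1) and 3 further p53 targets (Perp, Aen and Ei24). They were taken by gene symbol from 24343 genes, and all 10 were found. Levels are in FPKM, in which the fragments of a gene are usually divided by the length of its transcript and by the mapped total of the library. The paper names edgeR for normalization, and whether the totals were adjusted further is not stated here. Of the 10 genes, 8 reached an FPKM of 0.5 in 3 or more libraries and were tested among 11924 genes. Each of the 8 was at or above 0.5 in all 12 libraries, so the filter did not pick them for a response to treatment.

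HT22 cells, which are immortalized hippocampal neuronal cells of the mouse, were transfected with a negative control siRNA (siControl) or with an siRNA against Ncoa4 (siNCOA4). NCOA4 is the cargo receptor that brings ferritin to the lysosome for iron release. Cells of each kind were kept at normal iron or given the iron chelator deferoxamine (DFO) at 100 µM for 24 h, which made 4 groups of 3 biological replicates (siControl, siNCOA4, siControl+DFO and siNCOA4+DFO). All groups were transfected cells of the same line, 1 siRNA was used against Ncoa4, and no untransfected group was analysed here. HT22 cells descend from hippocampal cells immortalized with the SV40 large T antigen, a viral protein known to bind p53, and p53 protein was not measured in these data.

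The tumour suppressor p53 is a transcription factor held at low levels by the ubiquitin ligase Mdm2. Among its targets are genes that stop the cell cycle, genes of DNA repair and genes of apoptosis. The apoptosis genes act along 2 routes. Death receptors such as Fas and Tnfrsf10b assemble a caspase-activating complex when a ligand binds them. On the mitochondrial route, BH3-only proteins such as the products of Bbc3 (PUMA) and Pmaip1 (NOXA) release Bax, which permeabilizes the outer membrane, and the cytochrome c that escapes binds Apaf1 to form the apoptosome.

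Of the 7 genes for which RefSeq gave a promoter window (Fas, Eda2r, Bbc3, Bax, Apaf1, Aen and Ei24), 3 held a match to the p53 response element, shown here because the genes were chosen as p53 targets. The search took 2 p53 half-site consensus sequences of 10 bases in a row, with at most 1 base between them and at most 3 mismatches outside the fixed core C and G of each half-site. Each window ran from 250 bases before to 50 bases after a transcription start. The matches are written 5′ to 3′ on the strand of the gene, with the element in capitals and 4 flanking bases on each side.
Bbc3, chr7:16309482-16309509 (plus strand): ccgaCTGCAAGCCCCGACTTGTCCccag
Bax, chr7:45467075-45467103 (minus strand): tcccAGGCAAGCTTTGAACTTGCGGcaat
Aen, chr7:78895933-78895960 (plus strand): agccGGGCTTGTCCGGGCAAGGAGcttc

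The coordinates are those of the mouse build GRCm38 (mm10). The Bax match had 2 mismatches and 1 base between the half-sites and began 201 bases before the start. The Bbc3 match had 3 mismatches and began 97 bases before 1 of the starts of the gene. The Aen match, also with 3 mismatches, began 121 bases before 1 start and 10 bases after another. By the same search, 884 of 27025 genes with a window held a match, which is 3.27%, and 218 held a match with at most 2 mismatches (0.807%). A match describes the letters only. No binding was measured, and a window without a match says nothing about p53 at that gene.

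On GRCm38, RefSeq places Fas on chr19:34290647-34327775, Tnfrsf10b on chr14:69767472-69784411, Eda2r on chrX:97333837-97377234 and Apaf1 on chr10:90989311-91082743. Bbc3 (chr7:16308398-16318334), Bax (chr7:45461695-45466903) and Aen (chr7:78895927-78911209) lie on the same chromosome, and Ei24 is on chr9:36779153-36797334. Perp is on chr10:18845071-18857073. By the GENCODE annotation, 12.2% of the exon bases of Bax are shared with Gm45808 on the same strand, so part of its value may belong to that gene. For Ei24, 6.66% of the exon bases lie opposite exons of Gm26787, and the strand setting of the counting is not given in the sources used here. Windows of 75 bases, the read length, were shared with transcripts of other genes for 6.84% of Bax, 4.98% of Ei24, 2.53% of Tnfrsf10b and under 1% of the other genes.

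FPKM gives no read totals. Relative depth, estimated from the commonest ratio between low values, ran from 0.928 in siNCOA4+DFO replicate 3 to 1.41 in siNCOA4 replicate 3, with siControl replicate 1 set to 1. The siNCOA4+DFO replicate 3 library also stood farthest from the other libraries of its group, at a root mean square distance of 0.772 on the log2 scale against 0.618 to 0.686 for the other 11 libraries. It was the lowest of its group for 8 of the 8 genes tested, and values without it are given where a call depends on it. Ncoa4 was 6.22 ± 0.222 FPKM (SD, n = 3) in siControl and 0.871 ± 0.0929 FPKM in siNCOA4, and 8.18 ± 0.600 FPKM in siControl+DFO and 1.24 ± 0.363 FPKM in siNCOA4+DFO. Of 10 neuronal markers, 8 were below 1 FPKM in every library, among them Rbfox3 (at most 0.110), Map2 (at most 0.0583) and Snap25 (at most 0.179), whereas Tubb3 lay between 4.56 and 13.6. The summed level of 5 fibroblast or mesenchymal markers was 2832 to 3241 FPKM in siControl, 2109 to 2265 in siNCOA4, 1806 to 1877 in siControl+DFO and 1569 to 1708 in siNCOA4+DFO. The neuronal sum was 8.16 to 9.39 in siControl, 6.08 to 7.88 in siNCOA4, 12.3 to 13.9 in siControl+DFO and 5.77 to 9.83 in siNCOA4+DFO. That of 4 astrocyte markers, of which 3 were below 1 FPKM in every library, was 0.337 to 0.451 in siControl, 0.817 to 1.14 in siNCOA4, 0.668 to 1.35 in siControl+DFO and 2.85 to 3.26 in siNCOA4+DFO. Of 4 oligodendrocyte and 4 microglial markers the sums stayed at or below 1.47 and 0.752, with Olig2 and P2ry12 listed at 0 in every library. The part of these shifts in the results below was not tested, and in bulk RNA a change in the share of a kind of cell and a change of RNA per cell cannot be told apart.

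The first question was how the targets responded to iron chelation when Ncoa4 was intact. All 8 tested genes rose with DFO in siControl cells, by 2.05-fold (Bax) to 23.2-fold (Fas), and every library with DFO lay above every library without it. Across all genes tested, 27.7% rose in this comparison, 11.1% rose by more than 2-fold, as all 8 targets did, 25.7% fell, and 31.1% had every DFO library above every untreated one. The median log2 change of the 8 targets was 2.36, beside -0.01 over all genes tested. Here and below, rose and fell refer to an adjusted p under 0.05 by limma on log2(FPKM + 0.1), and fold changes are on that scale.

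**Figure D1:**
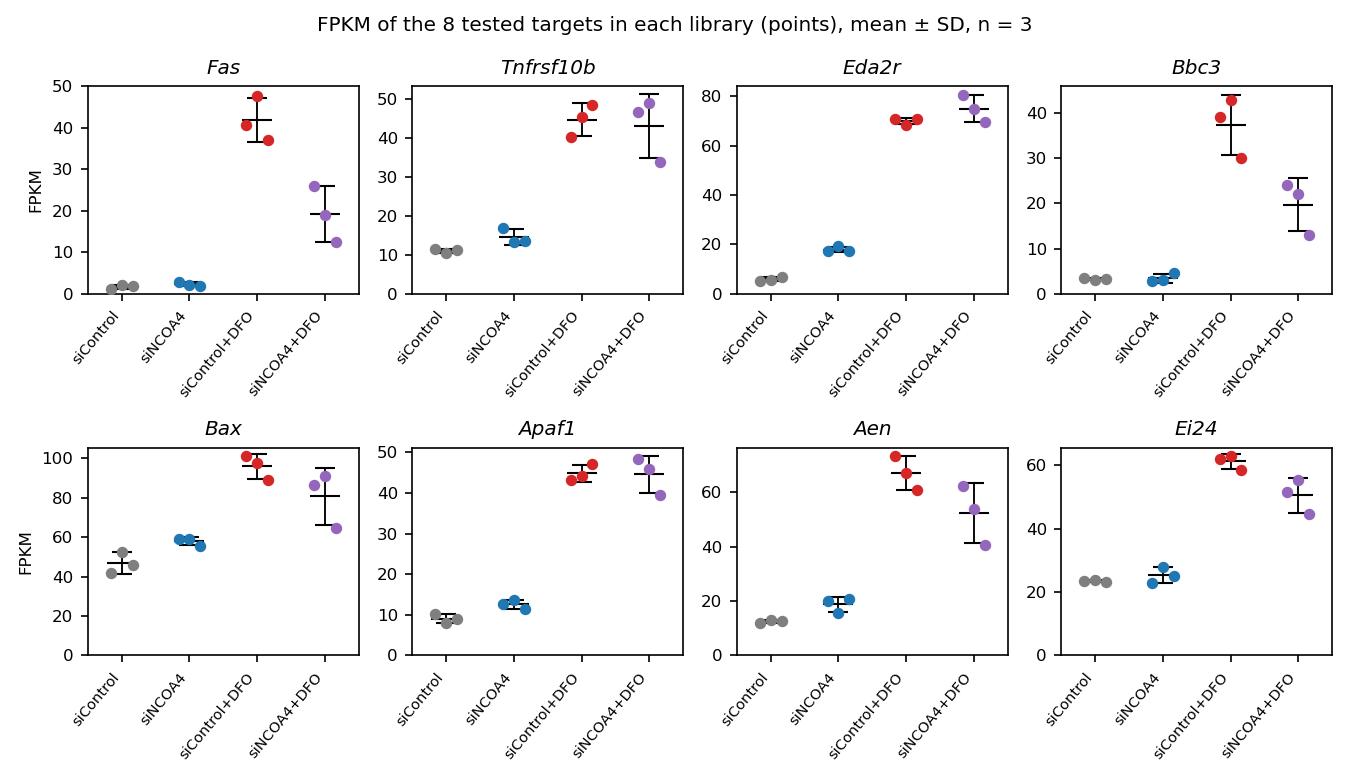
FPKM of the 8 tested genes (y axis, linear from 0) in each of the 12 libraries (points), by group, with the group mean and SD (bars, n = 3). Both groups with DFO sit above both groups without it in every panel, and siNCOA4+DFO sits below siControl+DFO without overlap for Fas, Bbc3 and Ei24.

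The responses of the receptors ranged from 4.001-fold to 23.2-fold. Fas, the receptor of Fas ligand, was at 1.22, 2.13 and 1.88 FPKM in the siControl libraries and at 40.8, 47.8 and 37.2 FPKM with DFO. It was the least abundant of the 8 genes at normal iron and had the largest change, a log2 value of 4.54 (95% confidence interval 3.97 to 5.10, adjusted p = 4.83e-08). Eda2r, a receptor of the same superfamily that binds an isoform of ectodysplasin, was at 5.31, 5.77 and 6.69 FPKM without and 70.7, 68.5 and 70.7 FPKM with DFO. Its libraries lay close together in both groups, and its log2 change was 3.55 (3.34 to 3.75, adjusted p = 2.51e-10). Tnfrsf10b, the receptor of the death ligand TRAIL, was at 11.5, 10.5 and 11.1 FPKM without and 40.0, 45.3 and 48.4 FPKM with DFO. The change was 4.001-fold (3.23 to 4.96, adjusted p = 2.90e-07), less than that of either other receptor, whose intervals did not reach it.

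On the mitochondrial route, Bbc3 responded far more than Bax. Bbc3, which encodes the BH3-only protein PUMA, was at 3.39, 2.98 and 3.36 FPKM in siControl and at 39.1, 42.8 and 30.0 FPKM in siControl+DFO. This was a rise of 11.1-fold (7.76 to 15.8, adjusted p = 2.03e-07). Bax, the pore-forming effector, was the most abundant of the 8 genes in both groups, at 42.0, 52.7 and 46.1 FPKM without and 101, 97.9 and 88.8 FPKM with DFO. Its rise of 2.05-fold (1.70 to 2.47, adjusted p = 1.99e-05) was the smallest of the 8. Apaf1, the scaffold of the apoptosome, rose from 10.2, 7.97 and 8.87 FPKM to 43.2, 44.3 and 47.2 FPKM, which was 4.96-fold (4.21 to 5.85, adjusted p = 1.16e-08).

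Pmaip1, which encodes the BH3-only protein NOXA, was listed at 0 in all 12 libraries, as were 6929 of the 24343 genes. No 75-base window of its transcripts was shared with another gene. An FPKM at or near 0 may also be a failed estimate in these tables. The lowest value of Gapdh, a gene used by every cell, was 0.364 FPKM over the 12 libraries, while Actb stayed at or above 929 FPKM. Perp, which encodes a p53-induced membrane protein of cell junctions, was listed at 0 in 11 libraries and at 0.295 FPKM in siNCOA4 replicate 2. Neither gene was tested.

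Aen encodes an apoptosis-associated nuclease and Ei24 an endoplasmic reticulum protein first known as an etoposide-induced transcript. Aen was at 11.8, 12.9 and 12.8 FPKM in siControl and at 73.4, 67.2 and 61.0 FPKM in siControl+DFO, a rise of 5.33-fold (4.25 to 6.68, adjusted p = 9.31e-08). Ei24 libraries lay close together at normal iron, at 23.6, 23.6 and 23.1 FPKM, and reached 62.1, 63.1 and 58.6 FPKM with DFO. The rise of Ei24 was 2.61-fold (2.27 to 3.00, adjusted p = 1.84e-07).

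Since FPKM is scaled by transcript length, the levels can be set in order within a group. In siControl the order of mean FPKM was Bax (46.9 ± 5.39), Ei24 (23.4 ± 0.302), Aen (12.5 ± 0.594), Tnfrsf10b (11.0 ± 0.532), Apaf1 (8.997 ± 1.10), Eda2r (5.92 ± 0.700), Bbc3 (3.24 ± 0.226) and Fas (1.74 ± 0.472; SD, n = 3 in each), and no gene overlapped its neighbour. In siControl+DFO it was Bax (96.0 ± 6.48), Eda2r (70.0 ± 1.26), Aen (67.2 ± 6.20), Ei24 (61.3 ± 2.32), Apaf1 (44.9 ± 2.08), Tnfrsf10b (44.6 ± 4.25), Fas (41.9 ± 5.39) and Bbc3 (37.3 ± 6.57). Eda2r held the sixth place without and the second with DFO. In that order Eda2r and Aen, Aen and Ei24, and each pair of neighbours from Apaf1 down to Bbc3 overlapped.

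The next question was whether the same genes responded to DFO when NCOA4 was depleted. All 8 rose again, 6 of them by more than 2-fold, and every siNCOA4+DFO library was above every siNCOA4 library. Across all genes tested, 23.1% rose in siNCOA4 cells, 7.59% rose by more than 2-fold, 19.6% fell, and 27.6% had every DFO library above every siNCOA4 library. The median log2 change of the 8 was 1.68, beside -0.003 over all genes. For each gene the estimate was below that of the same gene in siControl cells.

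**Figure D2:**
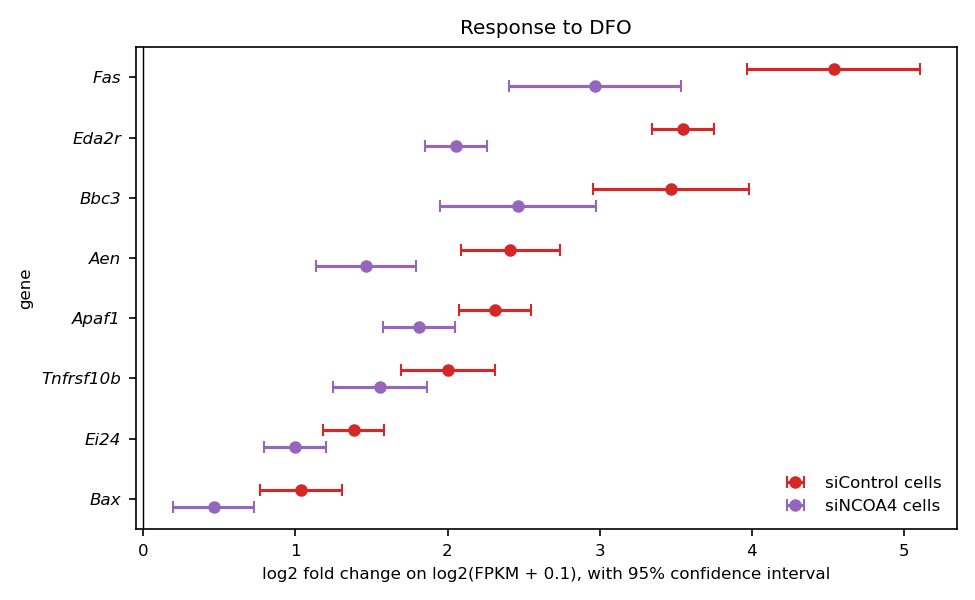
Log2 fold change with DFO on log2(FPKM + 0.1) (x axis) for each of the 8 genes (y axis), with its 95% confidence interval, in siControl cells and in siNCOA4 cells (n = 3 against 3 each). The value in siNCOA4 cells is the lower for 8 of 8 genes, and the intervals of Fas, Eda2r, Aen, Apaf1 and Bax do not touch.

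Among the receptors, Fas went from 2.78, 2.17 and 1.91 FPKM in siNCOA4 to 25.9, 19.1 and 12.5 FPKM in siNCOA4+DFO. The response was 7.84-fold (5.30 to 11.6, adjusted p = 3.40e-06), with replicate 3 well below the other libraries of its group. Eda2r went from 17.3, 19.3 and 17.2 FPKM to 80.4, 75.01 and 69.5 FPKM, a 4.16-fold rise (3.62 to 4.79, adjusted p = 2.95e-08). Its libraries with DFO were at the height seen in siControl+DFO, while those without DFO were above every siControl library. Tnfrsf10b went from 16.9, 13.1 and 13.4 FPKM to 46.5, 48.9 and 33.7 FPKM, which was 2.94-fold (2.37 to 3.64, adjusted p = 4.73e-06).

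In the mitochondrial group, Bbc3 went from 2.73, 3.11 and 4.56 FPKM to 24.0, 22.2 and 13.1 FPKM, a 5.51-fold rise (3.86 to 7.87, adjusted p = 6.81e-06). Apaf1 went from 12.7, 13.7 and 11.5 FPKM to 48.3, 46.0 and 39.6 FPKM, which was 3.51-fold (2.98 to 4.14, adjusted p = 1.92e-07). Bax was at 59.1, 59.1 and 55.5 FPKM without and at 86.4, 91.3 and 64.4 FPKM with DFO. The 1.38-fold rise of Bax (1.15 to 1.66, adjusted p = 0.00925) was the smallest seen, and the lowest library with DFO came near those without. Of the other 2 targets, Aen went from 19.9, 15.5 and 20.8 FPKM to 62.4, 53.9 and 40.6 FPKM (2.76-fold, 2.20 to 3.46, adjusted p = 1.13e-05). Ei24 went from 22.7, 27.8 and 25.2 FPKM to 51.5, 55.5 and 44.6 FPKM, and its 1.998-fold rise (1.74 to 2.30, adjusted p = 5.41e-06) fell just short of 2-fold. Without siNCOA4+DFO replicate 3 its log2 change was 1.09, above 2-fold, so its place below that threshold depended on this library.

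The difference between the DFO responses was tested by its own contrast, the response in siNCOA4 cells less that in siControl cells on the log2 scale. The difference was negative for 8 of 8 genes, with a median of -0.76 beside -0.01 over all genes, and 2 of them, Eda2r and Aen, passed the adjusted test. Over all genes tested, 1.43% had a significantly lower and 0.671% a significantly higher response in siNCOA4 cells. The siNCOA4+DFO replicate 3 library was the lowest of its group for 8 of 8 genes, which lowers each difference. Without it the differences stayed negative, from -1.44 (Eda2r) to -0.28 (Tnfrsf10b). For Eda2r the difference was -1.49 (95% confidence interval -1.78 to -1.20, adjusted p = 8.74e-04), and its adjusted p stayed at or below 0.00503 in 9 alternative analyses and at or below 0.00518 with any 1 library left out. For Aen it was -0.95 (-1.41 to -0.49, adjusted p = 0.0420). This call was lost in 4 of 9 alternatives and with 10 of the 12 libraries left out in turn, where the adjusted p reached 0.104. Without siNCOA4+DFO replicate 3 the difference was -0.78 (adjusted p = 0.0529), and the call held only without siNCOA4 replicate 2 or siNCOA4+DFO replicate 1.

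The other 6 genes did not pass. Fas had an estimate of -1.57 (-2.37 to -0.77), at an adjusted p of 0.0509. That p was 0.0387 with robust moderation, 0.04 with a pseudocount of 1 and 0.0451 with a filter at 2 FPKM. Fas passed in these 3 of 9 alternatives, and its highest adjusted p there was 0.0914, with quantile scaling. The adjusted p was 0.0233 without siNCOA4+DFO replicate 1, and without siNCOA4+DFO replicate 3 the estimate was -1.29 (adjusted p = 0.0753). The differences of Bbc3 (-1.01, adjusted p = 0.131), Bax (-0.57, adjusted p = 0.106), Apaf1 (-0.50, adjusted p = 0.110), Tnfrsf10b (-0.45, adjusted p = 0.263) and Ei24 (-0.38, adjusted p = 0.146) had unadjusted p-values between 0.00644 and 0.0457. Over all genes tested, 9.76% had a lower and 8.41% a higher response at an unadjusted p under 0.05. Without siNCOA4+DFO replicate 3 the differences were smaller, at -0.74 (Bbc3), -0.42 (Bax), -0.42 (Apaf1), -0.28 (Tnfrsf10b) and -0.30 (Ei24). The unadjusted p by limma was then 0.108 for Tnfrsf10b and between 0.00808 and 0.0285 for Bbc3, Bax, Apaf1 and Ei24. The 8 differences rest on the same 12 libraries and are not independent of one another.

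The difference of the responses can be taken apart into the siRNA effect at normal iron and the siRNA effect under DFO. These sides did not look alike from gene to gene. Eda2r, Apaf1 and Aen already stood higher at normal iron in NCOA4-depleted cells, whereas Fas and Bbc3 overlapped with siControl there and reached lower levels under DFO.

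**Figure D3:**
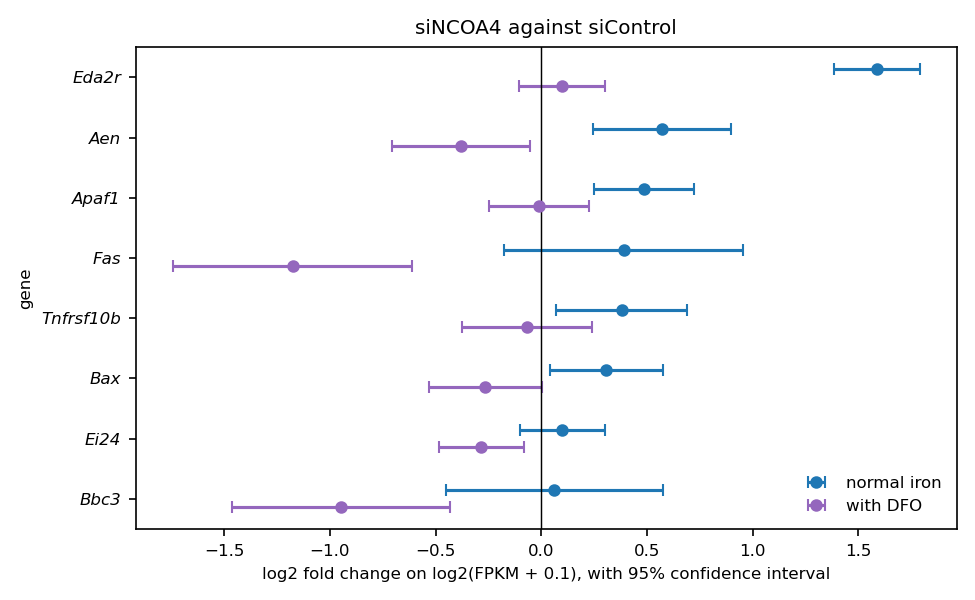
Log2 fold change of siNCOA4 against siControl on log2(FPKM + 0.1) (x axis) for each of the 8 genes (y axis), with its 95% confidence interval, at normal iron and with DFO (n = 3 against 3 each). Eda2r stands apart at 1.59 at normal iron and 0.10 with DFO, and Fas and Bbc3 have the lowest values with DFO.

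At normal iron, 3 of the 8 targets were raised by the Ncoa4 siRNA and none was lowered, beside 4.52% higher and 7.21% lower over all genes tested. At an unadjusted p under 0.05, 5 of the 8 were higher and 0 lower, beside 12.1% and 14.2% of all genes tested. Eda2r rose 3.00-fold (2.61 to 3.46, adjusted p = 1.47e-06), from 5.92 ± 0.700 to 17.9 ± 1.18 FPKM (SD, n = 3), and its call held in every alternative and without any 1 library. Aen rose 1.49-fold (1.18 to 1.86, adjusted p = 0.0294), from 12.5 ± 0.594 to 18.8 ± 2.82 FPKM, and Apaf1 1.40-fold (1.19 to 1.65, adjusted p = 0.0136), from 8.997 ± 1.10 to 12.6 ± 1.09 FPKM. The call of Aen was lost with no filter on low values (0.0510), without a trend in the moderation (0.0567), and when siNCOA4 replicate 1 or 3 or any 1 siControl library was left out, with an adjusted p of up to 0.106. That of Apaf1 was lost in a fit of those 2 groups alone (0.0588) and without siControl replicate 2 (0.0536) or siNCOA4 replicate 2 (0.0612).

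Tnfrsf10b (log2 change 0.38, adjusted p = 0.108) and Bax (0.31, adjusted p = 0.133) did not pass, although every siNCOA4 library was above every siControl library. Both passed when siNCOA4+DFO replicate 3 was left out of the fit, at adjusted p-values of 0.0376 and 0.0372. That library is in neither group compared. It enters through the shared estimate of the spread, the filter on low values and the adjustment over all genes. The siNCOA4 and siControl libraries overlapped for Fas (0.39, -0.18 to 0.96, adjusted p = 0.375), Ei24 (0.10, -0.10 to 0.30, adjusted p = 0.541) and Bbc3 (0.06, -0.45 to 0.58, adjusted p = 0.908).

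Under DFO, 2 targets were lower in NCOA4-depleted cells and none was higher, beside 10.2% lower and 6.22% higher over all genes tested. At an unadjusted p under 0.05, 4 of the 8 were lower and 0 higher, beside 18.3% and 13.9% of all genes tested. Fas fell by 1.18 on the log2 scale (95% confidence interval -1.74 to -0.61, adjusted p = 0.01001), from 41.9 ± 5.39 to 19.2 ± 6.70 FPKM, a ratio of 0.458. The highest siNCOA4+DFO library, at 25.9 FPKM, was below the lowest siControl+DFO library, at 37.2 FPKM. Without siNCOA4+DFO replicate 3 the change of Fas was -0.90 (adjusted p = 0.0359), and the call held with any 1 library left out. Bbc3 fell by 0.95 (-1.46 to -0.43, adjusted p = 0.0181), from 37.3 ± 6.57 to 19.8 ± 5.82 FPKM, a ratio of 0.529. That call was lost in a fit of those 2 groups alone (adjusted p = 0.0501), without siNCOA4+DFO replicate 3 (-0.68, adjusted p = 0.0597), without siControl+DFO replicate 1 (adjusted p = 0.0578) and without siControl+DFO replicate 2 (adjusted p = 0.0720).

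The DFO-treated levels of the other 6 targets did not pass the test between the siRNAs. Ei24 (-0.28, adjusted p = 0.0569) was lower in every siNCOA4+DFO library, and passed without siNCOA4+DFO replicate 2 (adjusted p = 0.0380). Aen (-0.38, adjusted p = 0.102) passed only without siNCOA4+DFO replicate 1 (adjusted p = 0.0368), and Bax (-0.26, adjusted p = 0.161) in none of these settings. Eda2r (0.10, -0.11 to 0.30), Apaf1 (-0.01, -0.25 to 0.22) and Tnfrsf10b (-0.07, -0.38 to 0.24) had overlapping libraries and estimates near 0, and those of Apaf1 and Tnfrsf10b turned positive without siNCOA4+DFO replicate 3. In siNCOA4+DFO the order of mean FPKM was Bax (80.7 ± 14.3), Eda2r (74.98 ± 5.43), Aen (52.3 ± 11.0), Ei24 (50.5 ± 5.51), Apaf1 (44.6 ± 4.52), Tnfrsf10b (43.0 ± 8.17), Bbc3 (19.8 ± 5.82) and Fas (19.2 ± 6.70), in which Eda2r and Aen, and Tnfrsf10b and Bbc3, were the neighbours that did not overlap.

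The combination was also set against siControl, a comparison that shares the siControl libraries with the DFO response and the siRNA effect. All 8 targets rose, 7 of them by more than 2-fold, whereas 25.4% of all genes tested rose and 9.24% rose by more than 2-fold. Eda2r had the largest rise, at 12.5-fold (10.9 to 14.4), followed by Fas at 10.3-fold (6.94 to 15.2), Bbc3 at 5.75-fold (4.03 to 8.21) and Apaf1 at 4.92-fold (4.18 to 5.80). Aen (4.09-fold), Tnfrsf10b (3.82-fold) and Ei24 (2.14-fold) came next, and Bax rose 1.71-fold (1.42 to 2.06, adjusted p = 2.38e-04). For Fas the fold against siControl was 23.2 with DFO alone, 1.31 with the siRNA alone and 10.3 with both, and for Eda2r the values were 11.7, 3.00 and 12.5.

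Across the 12 libraries the 8 genes moved together, with Pearson r of log2(FPKM + 0.1) between 0.892 and 0.990 over 28 pairs (median 0.960). These points share the split between libraries with and without DFO, so the values describe the pattern and carry no test. The gene most like each target over the 12 libraries was Ddit4 for Fas (r = 0.995), Slc12a4 for Tnfrsf10b (0.993), Atg9b for Eda2r (0.995), Ppm1d for Bbc3 (0.996), Cdc34 for Bax (0.985), Plod2 for Apaf1 (0.997), Hmga2 for Aen (0.995) and Rnd1 for Ei24 (0.996). The next most alike were Oser1, Susd6, 9030617O03Rik, Sqstm1, Apol9b, Ero1l, Irgm1 and Hmox1, in the same order.

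The targets were then set beside other genes of the pathway. Of 20 p53 regulators and targets in cell cycle arrest and repair, 17 rose with DFO in siControl cells, 1 (Sesn1, -1.35) fell and 2 (Xpc and Tigar) did not pass, with a median log2 change of 2.35. In siNCOA4 cells 17 rose and 1 fell, with a median of 1.70. Over all genes tested, 27.7% rose and 25.7% fell in siControl cells, and 23.1% rose and 19.6% fell in siNCOA4 cells. Mdm2, which ubiquitinates p53, was at 31.1, 28.4 and 32.5 FPKM in siControl and at 2895, 2754 and 2528 FPKM in siControl+DFO, a log2 change of 6.47. In NCOA4-depleted cells it went from 47.7, 52.6 and 51.0 FPKM to 1912, 1676 and 1202 FPKM, a log2 change of 4.96. Btg2, an antiproliferative gene (6.39 and 5.02), and Trp53inp1, which encodes a p53-induced nuclear protein (4.91 and 3.52), were the next largest in siControl cells. Trp53, the gene of p53 itself, rose by 0.75 in siControl and by 0.66 in siNCOA4 cells (adjusted p = 0.00148 and 0.00474).

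The difference of the DFO responses was significantly negative for 7 of these 20 genes and positive for 0 by limma (12 and 2 at an unadjusted p under 0.05), beside the 1.43% and 0.671% over all genes. They were Cdkn1a (-2.24), Mdm2 (-1.51), Trp53inp1 (-1.39), Btg2 (-1.38), Polk (-1.18), Gadd45a (-1.09) and Ccng1 (-1.03), of which Polk, Gadd45a and Ccng1, like Sesn1, Xpc and Tigar before them, were named after their values were seen. Without siControl+DFO replicate 1 the count was 4. Cdkn1a, the cyclin-dependent kinase inhibitor p21, was at 12.7, 16.2 and 16.1 FPKM in siControl, 49.8, 54.6 and 55.0 FPKM in siNCOA4, 435, 467 and 433 FPKM in siControl+DFO, and 409, 364 and 247 FPKM in siNCOA4+DFO. Like Eda2r, it was higher in every siNCOA4 than in every siControl library at normal iron. At normal iron 7 of the 20 genes rose and 0 fell with the siRNA by limma (10 and 3 at an unadjusted p under 0.05). Over all genes tested, 4.52% rose and 7.21% fell there by the adjusted test. Under DFO 2 of the 20 rose and 5 fell, beside 6.22% and 10.2% of all genes tested. This count of 7 changed genes dropped to 3, 2 and 4 without siControl+DFO replicate 1, 2 or 3 and to 4 without siNCOA4+DFO replicate 3.

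**Figure D4:**
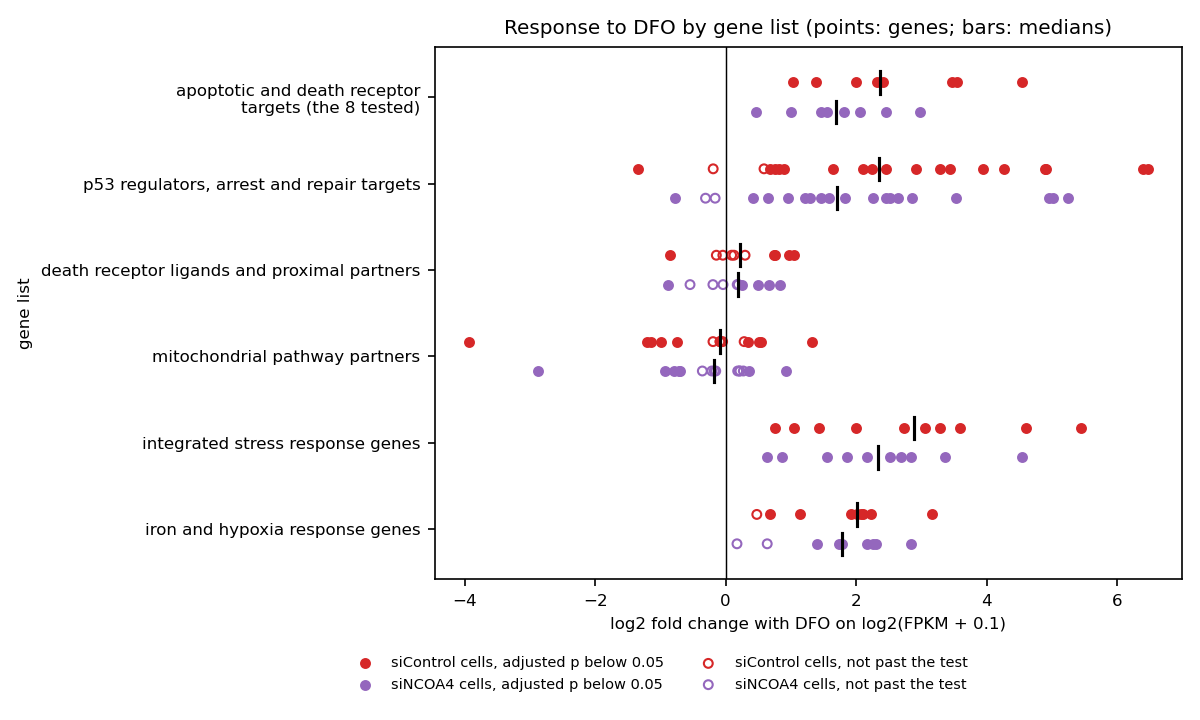
Log2 fold change with DFO on log2(FPKM + 0.1) (x axis) for the 8 targets and for 5 lists of related genes (y axis), in siControl cells (upper row of each list) and siNCOA4 cells (lower row). Filled points passed the test, open points did not and bars are medians: the targets and the p53 regulators sit mostly above 0, with medians of 2.36 and 2.35 in siControl cells, and both partner lists spread to either side of 0.

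The ligands of the receptors were hardly seen. Fasl was at most 0.301 FPKM in any library, Tnfsf10 (TRAIL) at most 0.220 FPKM, and Eda was listed at 0 in all 12. Of 14 ligands and proximal partners of death receptors, 10 were tested, and with DFO 4 rose, 1 fell and 5 did not pass in siControl cells, with a median log2 change of 0.21, beside 27.7% and 25.7% of all genes tested that rose and fell. The counts in siNCOA4 cells were also 4, 1 and 5 (median 0.19), beside 23.1% and 19.6%, and 0 of the 10 differed in response between the siRNAs by limma (0 higher and 2 lower at an unadjusted p under 0.05). Cflar, which encodes a caspase-8 inhibitor, rose by 1.05 in siControl and 0.50 in siNCOA4 cells. Tnfrsf23, a decoy receptor of TRAIL, rose by 0.98 and 0.83, and Tradd, an adaptor of death domain receptors, fell by 0.85 and 0.88.

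Of 17 partners on the mitochondrial route, 15 were tested. With DFO 4 rose, 5 fell and 6 did not pass in siControl cells (median -0.08), again beside 27.7% and 25.7% of all genes, and 2 rose, 5 fell and 8 did not pass in siNCOA4 cells (median -0.18), with 0 differing in response by limma (1 higher and 2 lower at an unadjusted p under 0.05). Mcl1, an antiapoptotic member of the Bcl-2 family, rose by 1.32 and 0.93. Bak1, which forms pores as Bax does, fell by 1.20 and 0.93, from 45.4 ± 4.16 to 19.6 ± 0.143 FPKM in siControl cells (SD, n = 3). Bmf, a BH3-only gene like Bbc3, fell by 3.93 and 2.87. It was at 2.77, 2.21 and 2.67 FPKM in siControl and at 0.137, 0.117 and 0 FPKM in siControl+DFO, so the size of its change depends on the pseudocount. Casp9, the caspase that the apoptosome activates, fell by 1.15 and 0.70. Bcl2l1, the antiapoptotic gene of Bcl-xL, was at 21.5 to 30.0 FPKM in siControl and 23.5 to 25.8 FPKM in siControl+DFO (log2 change -0.09, adjusted p = 0.611), and rose by 0.36 in siNCOA4 cells (adjusted p = 0.0482).

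Genes of 2 other responses to chelation rose with the targets. All 10 genes of the integrated stress response rose with DFO in both siControl (median 2.89) and siNCOA4 cells (median 2.34). Over all genes tested, 27.7% and 23.1% rose. Sesn2 is in this list and also among the p53 regulators and targets above. Ppp1r15a, a phosphatase subunit that ends the translational block, rose by 5.44 and 4.54, and Slc7a11, the cystine transporter, by 3.59 and 2.83. Atf3, a stress-induced transcription factor, was listed at 0 in the 6 libraries without DFO and was at 3.37, 1.43 and 2.58 FPKM in siControl+DFO and at 0.483, 1.64 and 0.964 FPKM in siNCOA4+DFO. In this list Ddit4 alone passed the test of a difference between the responses (-0.87), and it did not without any 1 of 6 libraries. At an unadjusted p under 0.05 by limma, 0 of the 10 had a higher and 5 a lower response in siNCOA4 cells. The median difference was -0.56, beside -0.58 for the p53 regulators and targets and -0.76 for the 8 tested genes. It was 0.05 for the iron and hypoxia genes described next, which DFO also raised. For the death receptor partners it was -0.21 and for the mitochondrial partners -0.07.

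Of 9 tested genes of the iron and hypoxia responses, 8 rose in siControl cells (median 2.02) and 7 in siNCOA4 cells (median 1.78), beside 27.7% and 23.1% of all genes. Between the siRNAs 0 differed in response by limma (1 higher and 2 lower at an unadjusted p under 0.05). Tfrc, the transferrin receptor, was at 72.5, 68.6 and 69.8 FPKM in siControl and at 319, 318 and 348 FPKM in siControl+DFO. In NCOA4-depleted cells it went from 69.9, 80.0 and 66.0 FPKM to 224, 233 and 264 FPKM, and the difference of its responses, -0.48, did not pass (adjusted p = 0.0649). Ndrg1, a gene induced by hypoxia and chelators, rose by 3.16 and 2.84, and Vegfa, the vascular growth factor, by 2.11 and 2.16.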

How the data were processed

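The transcriptome of HT22 cells was sequenced in 12 libraries, 3 in each of 4 groups, with groups and replicate numbers taken from the sample labels. A low-input, stranded kit for total RNA was used, with paired reads of 75 bp. The submitters' processing notes name Trimmomatic 0.33, FastQC, HISAT2 2.1.0, featureCounts, edgeR and the build mm10. The annotation and the strand setting of the counting are not given in the sources used here. The authors deposited FPKM values, 1 table of 24347 entries per library, of which 4 shared a name and were left out. FPKM carries no read totals, so no counting interval is given, and whole reads could not be recovered.

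A model of group means was fitted to log2(FPKM + 0.1) for the 11924 genes that reached 0.5 FPKM in 3 or more libraries. The fit used limma 3.58.1 in R 4.3.3 with a mean-variance trend. P-values were two-sided and adjusted by the Benjamini-Hochberg method over all genes within each of 6 comparisons, and an adjusted p under 0.05 was called. An exact permutation test of 3 against 3 libraries cannot go below 0.1 and was not used. The labels give biological replicates, without saying from which cultures, so p-values measure the spread between these samples. The fit was also tested on simulated data, drawn with independent noise and without a shift of any whole library. Tables, sequence searches and figures were made with Python 3.11.15, pandas 2.3.3 and matplotlib 3.10.9, and places and shared sequence came from GENCODE and RefSeq on GRCm38. No sequence or position is given for Pmaip1.

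The 10 genes and the lists of related genes were chosen with earlier results of these data known. Named from the lists were the 3 largest called changes with DFO in siControl cells, with Trp53, Mdm2, Cdkn1a, Fasl, Tnfsf10, Eda, Casp9, Bcl2l1, Ncoa4 and Tfrc always, and for each target the 2 genes with the highest correlation. The promoter search was designed after the data were seen.

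Alternatives were pseudocounts of 1 and 0.01, a filter at 2 FPKM or none, scaling by quantiles or by median-of-ratios factors, a block for the replicate number, fitting only the libraries compared, moderation made robust or run without the trend, a fold change above 2 besides, and leaving out each library.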

Additional observations from a re-analysis of the deposited data

Results flagged for a closer look

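The response to DFO differed between siControl and siNCOA4 cells for 2 of the 8 tested genes by the contrast of the responses in limma. For Eda2r the response in siNCOA4 cells less that in siControl cells was -1.49 on the log2 scale (adjusted p = 8.74e-04), and for Aen it was -0.95 (adjusted p = 0.0420). The responses themselves were 3.55 and 2.06 for Eda2r and 2.41 and 1.46 for Aen, upward in 3 of 3 libraries of both DFO groups. The groups of 3 libraries were too small for a test of outlying samples. By distance alone, siNCOA4+DFO replicate 3 stood farthest from its group, as described above.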

How the results depend on the processing

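The 8 tested genes rose with DFO in siControl cells, in siNCOA4 cells and in the combination with any 1 library left out. They also did so under every alternative except a fold above 2 besides. With that, 8 passed in siControl cells, 6 in siNCOA4 cells and 7 in the combination. The median-of-ratios factors lay between 1.0035 and 1.013, so scaling by them could change little. For the difference of the DFO responses, 2 genes passed. With a pseudocount of 1, a filter at 2 FPKM or robust moderation, 3 did. With no filter, quantile scaling, no trend in the moderation or a fold above 2 besides, 1 did, and 1 to 3 did with 1 library left out. The replicate numbers did not pair the samples (18 correlations of deviations between -0.127 and 0.116), and with the replicate number as a block 1 gene passed. For the siRNA at normal iron 3 genes passed, 2 with no filter, in the compared groups alone or with no trend, 1 with a fold above 2 besides, and 1 to 5 with 1 library left out (1 without siControl replicate 2, 5 without siNCOA4+DFO replicate 3). For the siRNA under DFO 2 passed, 1 in the compared groups alone, 1 with a fold above 2 besides, and 1 to 3 with 1 library left out. Estimates that changed sign were all far from the threshold. For the siRNA at normal iron, Bbc3 was -0.003 with quantile scaling and ran from -0.148 (without siNCOA4 replicate 3) to 0.212. For the siRNA under DFO, Tnfrsf10b was 0.060 with quantile scaling and ran from -0.168 to 0.10 (without siNCOA4+DFO replicate 3). There Apaf1 was 0.112 with quantile scaling and ran from -0.072 to 0.071, with 0.024 without siControl+DFO replicate 3 and 0.071 without siNCOA4+DFO replicate 3. The cause of these changes was not tested. With unknown read totals, the genes listed at 0 have no limit of detection.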
